A study of Homo sapiens with 12 samples.

Results

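The genes described here carry a dividing cell through DNA replication, the cyclin-CDK steps and mitosis. They were taken from a list of 50 gene names, and 49 of them had an array probe set annotated to that gene alone, of 18404 genes measured in all. CDKN2C, the remaining name, was not analysed here. The 49 genes were read in 3 roles: 18 replication genes, 17 cyclins, CDKs and CDK regulators, and 14 mitosis genes. No filter on low signal was applied, so all 49 were tested in each comparison, and 48 of them lay above 8.03, the median signal of all genes on the log2 scale.

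The 12 arrays, in 4 groups of 3, came from a pair of human embryonal carcinoma lines, 2102Ep (passage 35 to 50) and NTera-2 (passage 40 to 50), which are germ cell tumour lines with features of pluripotent stem cells. In each line the SOX2 group (siSOX2) received a single siRNA against SOX2 and the control group a non-targeting siRNA (Negative Control #1). Cells were seeded 24 h before transfection, transfected for 6 h and kept for a further 72 h before RNA was taken. Lipofectamine 2000 carried the siRNA into 2102Ep and Lipofectamine RNAiMAX into NTera-2, and by the study's methods NTera-2 received siRNA at a higher concentration, so that line, reagent and siRNA dose cannot be told apart in any comparison between the lines. Each group consisted of 3 samples that the labels call biological replicates, and this number limits the precision of every value below.

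Before S phase, the MCM helicase is loaded onto DNA by CDC6 and CDT1, a step held back by geminin (GMNN). CDC45 and the GINS complex then join it, and ribonucleotide reductase (RRM1, RRM2) and thymidylate synthase (TYMS) provide the building blocks. D cyclins with CDK4 and CDK6, followed by E cyclins with CDK2, phosphorylate RB proteins and free the E2F factors. The p27 family (CDKN1B, CDKN1C) inhibits these kinases, and the INK4 family (CDKN2D) inhibits CDK4 and CDK6. A and B cyclins with CDK1 drive mitosis, in which PLK1, the Aurora kinases, the BUB1 and TTK checkpoint kinases, kinesins and centromere proteins act. Pluripotent cells are known for a short G1 phase and a high share of cells in S phase.

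Promoter sequences bear on the division into replication and mitosis genes and are given first. Promoters were available for 38 of the 49 genes as RefSeq windows of 300 bases around the annotated start (GRCh38.p14). Sets of letters known from cell cycle and SOX promoters were searched on both strands, and matches of one set were allowed to overlap those of another. The E2F set (TTTCCCGC or TTTCGCGC or TTTGCCGC or TTTGGCGC) was present in 11 of 16 replication promoters (68.8%) and in 0 of 10 mitosis promoters, against 3.31% of all 35116 windows. The cell cycle homology region (CHR, TTTGAA or TTCGAA), known as a binding element of the DREAM and MuvB complexes, was present in 8 of 10 mitosis promoters (80%) and 2 of 16 replication promoters, against 16.4% of all windows. Of 12 promoters of cyclins, CDKs and regulators, 2 held CHR and 2 held E2F letters. CCAAT was held by 28 of the 38 promoters (73.7%), against 34.6% of all windows. The short SOX core letters (ACAATG or ACAAAG) were found in 4 of the 38 promoters (10.5%), against 24.5% of all windows. These matches describe letters only and not binding.

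The promoters of CENPF, CCNB2 and MCM6 are printed as examples of these letters in genes that differed between the lines, and that of CDKN1B because its knock-down response differed between the lines. Letters in capitals are CHR and CCAAT matches in CENPF and CCNB2, E2F matches in MCM6 and CCAAT matches in CDKN1B, and each sequence reads along the strand of its gene.
CENPF, chr1:214602945-214603244, plus strand: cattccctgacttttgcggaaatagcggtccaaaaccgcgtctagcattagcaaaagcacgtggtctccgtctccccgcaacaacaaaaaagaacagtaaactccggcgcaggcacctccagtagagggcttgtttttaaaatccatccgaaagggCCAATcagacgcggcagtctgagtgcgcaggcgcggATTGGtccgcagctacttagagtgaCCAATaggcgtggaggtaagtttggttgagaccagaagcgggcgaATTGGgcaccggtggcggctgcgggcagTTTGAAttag
CCNB2, chr15:59104896-59105195, plus strand: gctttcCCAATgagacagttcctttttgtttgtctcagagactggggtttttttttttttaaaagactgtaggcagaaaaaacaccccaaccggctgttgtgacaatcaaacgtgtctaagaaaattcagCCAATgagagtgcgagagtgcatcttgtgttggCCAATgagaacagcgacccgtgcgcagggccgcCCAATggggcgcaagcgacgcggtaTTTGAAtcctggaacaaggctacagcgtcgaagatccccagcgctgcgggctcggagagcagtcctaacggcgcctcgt
MCM6, chr2:135876394-135876693, minus strand: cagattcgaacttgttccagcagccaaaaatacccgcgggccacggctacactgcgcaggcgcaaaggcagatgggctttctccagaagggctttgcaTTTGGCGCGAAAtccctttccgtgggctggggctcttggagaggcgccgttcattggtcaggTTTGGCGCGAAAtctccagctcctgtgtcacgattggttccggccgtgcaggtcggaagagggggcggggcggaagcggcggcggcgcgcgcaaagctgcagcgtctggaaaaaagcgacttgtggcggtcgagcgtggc
CDKN1B, chr12:12717118-12717417, plus strand: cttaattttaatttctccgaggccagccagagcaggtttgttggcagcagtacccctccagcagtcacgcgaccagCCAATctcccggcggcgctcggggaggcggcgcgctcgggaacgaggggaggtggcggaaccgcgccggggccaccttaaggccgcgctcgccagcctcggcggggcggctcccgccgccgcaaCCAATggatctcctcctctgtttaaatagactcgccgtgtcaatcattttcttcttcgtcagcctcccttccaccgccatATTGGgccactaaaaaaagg
CENPF and CCNB2 each held 1 CHR and 4 CCAAT matches and no E2F match. In MCM6 the 4 E2F matches formed a pair of stretches, each read as a match on either strand, and the window also held 1 CHR and 2 CCAAT matches that are not capitalised. CDKN1B held 3 CCAAT matches and none of the other sets. Not every gene followed its role: RRM1, the replication gene with the largest difference between the lines, held 1 CHR match and no E2F match, and CCNB2 belongs to the cyclins.

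SOX2, the targeted gene, was checked first. Its log2 signal in 2102Ep was 12.28, 12.21 and 12.20 on the control arrays and 9.17, 9.30 and 8.80 on the siSOX2 arrays, a change of -3.14 ± 0.12 (SE, adjusted p = 6.22e-12). In NTera-2 it was 12.51, 12.52 and 12.63 on the controls and 11.93, 11.95 and 11.86 after siSOX2, a change of -0.64 ± 0.12 (adjusted p = 0.00225). SOX2 therefore fell 8.79-fold in 2102Ep and 1.56-fold in NTera-2, and the difference of -2.49 ± 0.17 between the responses passed the test (adjusted p = 4.87e-08). The fall in SOX2 mRNA was thus larger in 2102Ep, and SOX2 protein is not measured by these arrays. Here and below, adjusted p-values come from limma with Benjamini-Hochberg adjustment over all 18404 genes, and "rose" or "fell" means an adjusted p of 0.05 or less.

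Few of the cell cycle genes passed the test when SOX2 was silenced in 2102Ep. Of 49 genes, 3 rose (CCND1, CDK2 and TYMS) and 1 fell (CCNE2), where 6.76% of all genes rose and 5.9% fell. None passed 2-fold, a size reached by 1.98% of all genes, and 7 of 49 had an unadjusted p below 0.05, against 4211 of all 18404 genes. The 2 groups of arrays did not overlap for 10 of the 49, against 25.2% of all genes. The median change was 0.03 on the log2 scale, beside -0.01 for all genes, and 46 of the 49 (93.9%) lay within 0.5 of 0, close to the 91.6% of all genes. The 95% interval lay wholly inside a 2-fold change for 48 of 49 genes (98%), a share close to the 95.6% of all genes, with CCNE2 as the exception.

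In NTera-2, 0 of 49 genes passed the test by limma in either direction, where 2.96% of all genes rose, 1.98% fell and 0.657% did so past 2-fold. CDKN1B and CDC25C had an unadjusted p below 0.05, as had 2716 of all 18404 genes. The arrays of the groups did not overlap for 5 of the 49, against 21.3% of all genes. Changes ran from -0.24 to 0.30 with a median of 0.05, beside 0.04 for all genes. Every 95% interval lay inside a 2-fold change, as it did for 98.3% of all genes.

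**Figure D1:**
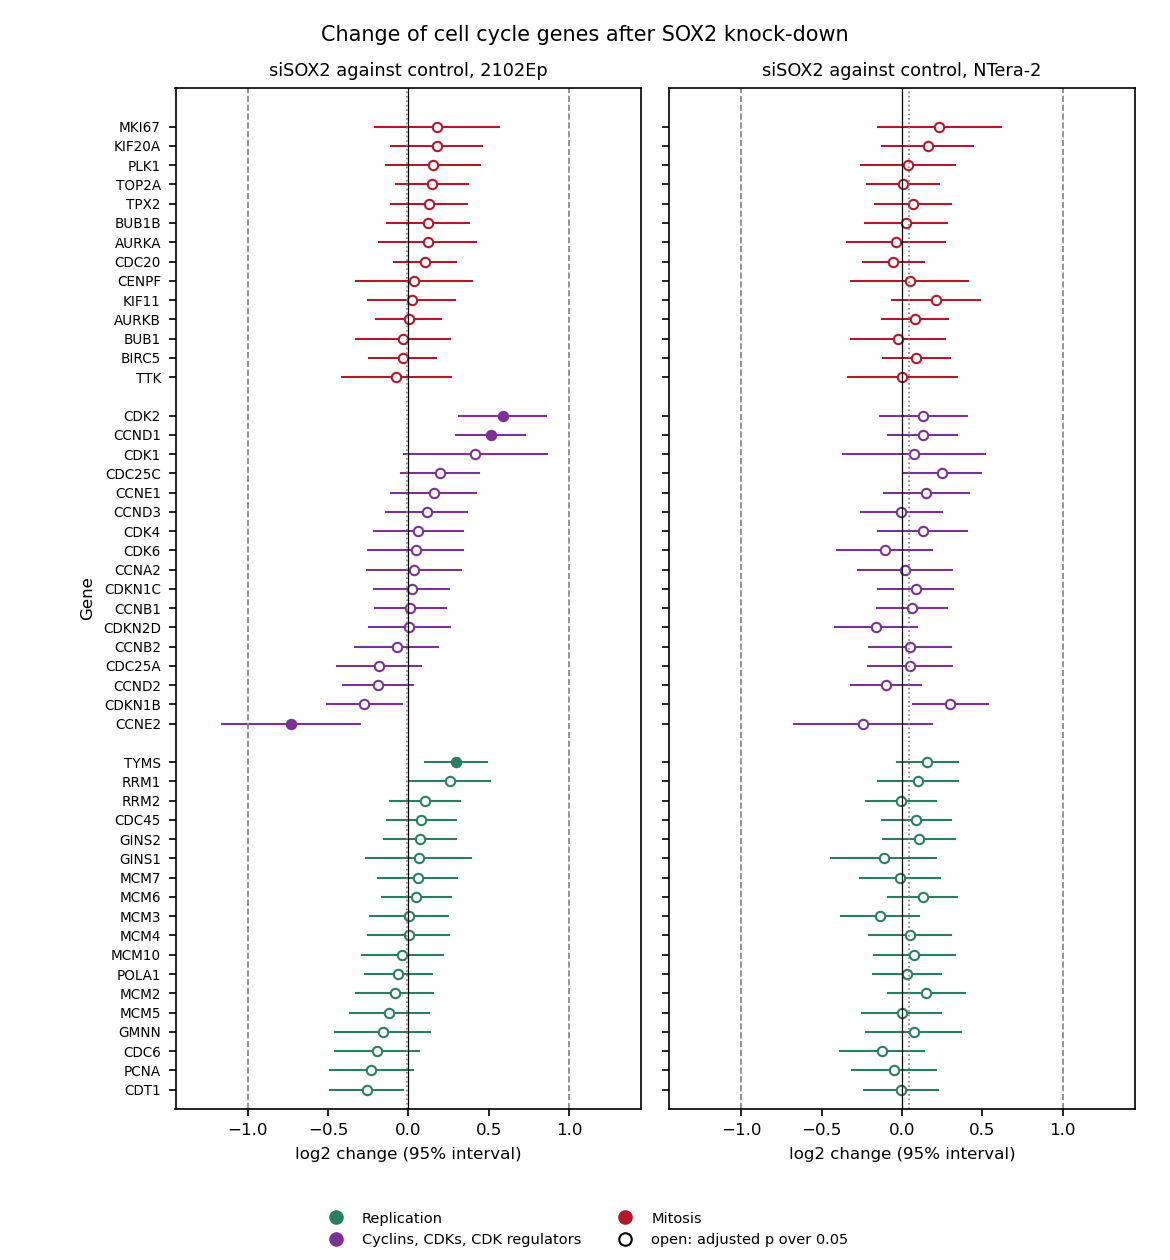
Log2 change after siSOX2 (horizontal axis) of each measured cell cycle gene, with 2102Ep left and NTera-2 right, as limma estimates with 95% intervals. Filled points passed an adjusted p of 0.05, dashed lines mark 2-fold and the dotted line is the median of all genes. The 4 filled points, CCND1, CDK2, TYMS and CCNE2, all belong to 2102Ep, and only the interval of CCNE2 reaches past a 2-fold change.

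Among replication genes, TYMS, which makes the thymidine nucleotide for DNA, was the only 1 of 18 that passed in 2102Ep. Its signal was 10.68, 10.62 and 10.69 on the control arrays and 11.02, 10.93 and 10.93 after siSOX2. All siSOX2 arrays lay above all controls, and the change was 0.30 ± 0.09 (adjusted p = 0.0383). This call was lost in 12 of 20 alternative settings, with adjusted p up to 0.151, and leaving out any single 2102Ep array was enough. In NTera-2 TYMS gave 11.15, 11.11 and 11.14 on the controls and 11.33, 11.25 and 11.29 after siSOX2. Those groups did not overlap either, but the change of 0.16 ± 0.09 did not pass (adjusted p = 0.481).

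RRM1, the large subunit of ribonucleotide reductase, read 10.42, 10.33 and 9.98 in 2102Ep controls and 10.56, 10.52 and 10.43 after siSOX2, without overlap. Its change of 0.26 ± 0.12 did not pass (adjusted p = 0.202). CDT1, which loads the helicase, read 9.36, 9.33 and 9.41 on the controls and 9.03, 9.22 and 9.07 after siSOX2, all below the controls. This change of -0.26 ± 0.11 did not pass (adjusted p = 0.15). In NTera-2 CDT1 differed by -0.01, with a 95% interval from -0.24 to 0.22.

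The helicase subunits MCM2 to MCM7, and MCM10, which is not a subunit, lay between -0.12 (MCM5) and 0.06 (MCM7) in 2102Ep. In NTera-2 they lay between -0.14 (MCM3) and 0.15 (MCM2), and none passed in either line. The lowest of the remaining replication genes in 2102Ep was PCNA, the polymerase clamp, at -0.23 (adjusted p = 0.291). For all 18 replication genes the median change was 0.0027 in 2102Ep and 0.04 in NTera-2.

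Of the 17 cyclins, CDKs and CDK regulators, 3 passed in 2102Ep. CCND1 (cyclin D1), the partner of CDK4 and CDK6 in G1, gave 10.79, 10.58 and 10.76 on the controls and 11.31, 11.29 and 11.06 after siSOX2. The siSOX2 arrays were all higher, and the rise of 0.51 ± 0.10 passed (adjusted p = 0.00188) here and in each of 20 alternative settings. In NTera-2 it started higher, at 11.54, 11.53 and 11.57, and read 11.66, 11.64 and 11.73 after siSOX2. These arrays did not overlap, but the change of 0.13 ± 0.10 did not pass (adjusted p = 0.664).

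CDK2, the kinase of cyclins E and A, gave 9.56, 9.17 and 9.21 on the 2102Ep controls and 9.85, 9.97 and 9.88 after siSOX2. The groups were apart, and the rise of 0.59 ± 0.13 passed (adjusted p = 0.00446) in every alternative setting too. The NTera-2 arrays overlapped, with 9.75, 9.86 and 9.66 on the controls and 9.95, 9.63 and 10.09 after siSOX2, a change of 0.13 ± 0.13 (adjusted p = 0.737).

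CCNE2 (cyclin E2), a partner of CDK2, gave 7.51, 8.19 and 7.19 on the 2102Ep controls and 6.92, 7.07 and 6.71 after siSOX2. It had the lowest signal of the listed genes and spread widely among controls (SD 0.51), yet all siSOX2 arrays were lower. The fall of 0.73 ± 0.20 passed (adjusted p = 0.0233) but was lost without control replicate 2, without siSOX2 replicate 1 and without siSOX2 replicate 3, at adjusted p up to 0.113. In NTera-2 the arrays overlapped, with 7.71, 8.36 and 7.93 on the controls and 7.72, 7.63 and 7.93 after siSOX2 (-0.24 ± 0.20, adjusted p = 0.688). CCNE1 (cyclin E1) differed by 0.16 in 2102Ep (adjusted p = 0.531) and 0.15 in NTera-2 (adjusted p = 0.677).

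CDK1, the mitotic kinase, read 9.06, 8.96 and 8.05 on the 2102Ep controls and 8.89, 9.35 and 9.08 after siSOX2. The difference of 0.42 ± 0.21 did not pass (adjusted p = 0.253), and control replicate 3 was far below the other arrays. CDC25C, the phosphatase that activates CDK1, read 8.14, 8.48 and 8.33 on the NTera-2 controls and 8.58, 8.47 and 8.65 after siSOX2, a change of 0.25 ± 0.12 (adjusted p = 0.321).

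The other D cyclins did not follow CCND1 past the test. CCND2 (cyclin D2) read 12.12, 11.88 and 12.11 on the 2102Ep controls and 11.89, 11.94 and 11.72 after siSOX2, a change of -0.19 ± 0.10 (adjusted p = 0.311). In NTera-2 it read 12.18, 12.27 and 12.28 against 12.17, 12.07 and 12.19 (-0.10 ± 0.10, adjusted p = 0.764). CCND3 (cyclin D3) differed by 0.12 ± 0.12 in 2102Ep (adjusted p = 0.659), from 10.00, 9.94 and 9.72 to 10.01, 9.94 and 10.05. Its NTera-2 arrays read 9.01, 9.39 and 8.96 on the controls and 9.08, 9.09 and 9.18 after siSOX2 (-0.0046 ± 0.12, adjusted p = 0.995). Arrays of the groups overlapped for CCND2 and CCND3 in both lines.

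Of the CDK inhibitors, CDKN1B (p27) had values of opposite sign in the 2 lines. In 2102Ep it read 10.05, 10.23 and 9.97 on the controls and 9.82, 9.82 and 9.79 after siSOX2, every one lower (-0.27 ± 0.11, adjusted p = 0.132). In NTera-2 it read 10.20, 10.13 and 10.27 on the controls and 10.45, 10.36 and 10.70 after siSOX2, every one higher (0.30 ± 0.11, adjusted p = 0.161). Neither change passed by itself. CDKN1C (p57) read 9.36, 9.52 and 9.48 against 9.54, 9.38 and 9.49 in 2102Ep, a change of 0.02 ± 0.11 (adjusted p = 0.949), and 9.64, 9.31 and 9.46 against 9.42, 9.69 and 9.55 in NTera-2, a change of 0.08 ± 0.11 (adjusted p = 0.826). CDKN2D (p19 of the INK4 family) read 8.09, 8.22 and 8.44 against 8.33, 8.13 and 8.30 in 2102Ep, a change of 0.0064 ± 0.12 (adjusted p = 0.986). In NTera-2 CDKN2D read 8.18, 7.93 and 7.98 against 7.69, 8.0 and 7.91 (-0.16 ± 0.12, adjusted p = 0.632). The groups of both these inhibitors overlapped in both lines.

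**Figure D2:**
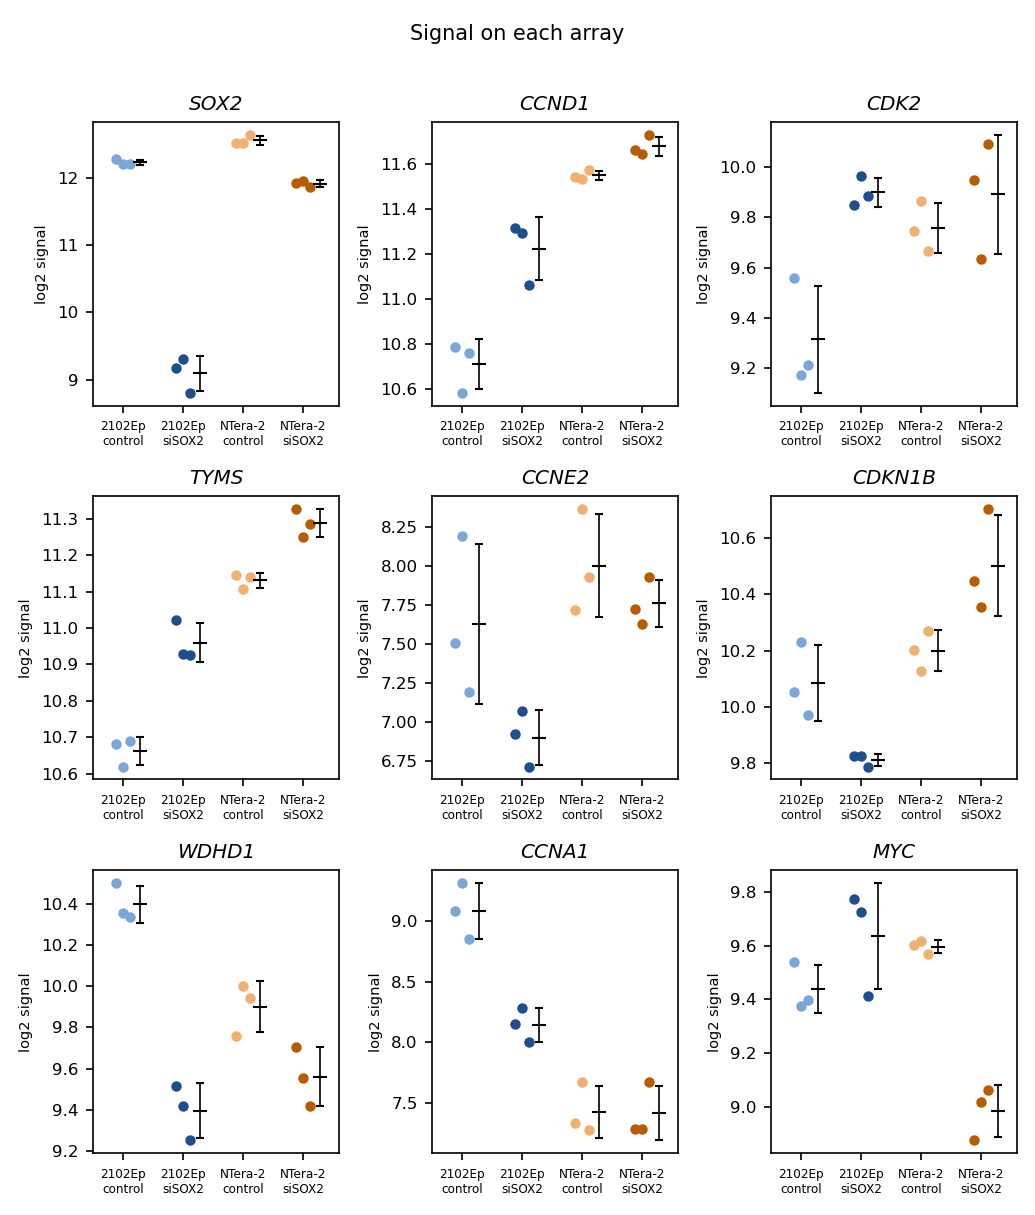
Log2 signal (vertical axis, a separate scale for each gene) on each of the 3 arrays of the 4 groups, with the group mean and SD in black. CCND1 and CDK2 rose in 2102Ep, CDKN1B was lower after siSOX2 on every 2102Ep array and higher on every NTera-2 array, and WDHD1, CCNA1 and MYC are genes of the wider pathway lists.

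None of the 14 mitosis genes passed in either line by limma, and 0 had an unadjusted p below 0.05. Of all genes, 6.76% rose and 5.9% fell in 2102Ep, and 2.96% rose and 1.98% fell in NTera-2. At these shares few of 14 genes would pass. An unadjusted p below 0.05 was held by 4211 of all 18404 genes in 2102Ep and by 2716 in NTera-2. In 2102Ep the changes of the mitosis genes ran from -0.08 (the checkpoint kinase TTK) to 0.18 (the proliferation marker MKI67), with a median of 0.11. In NTera-2 they ran from -0.05 (CDC20, the activator of the anaphase-promoting complex) to 0.23 (MKI67), with a median of 0.04. MKI67 read 10.38, 9.56 and 10.30 on the 2102Ep controls and 10.42, 10.32 and 10.04 after siSOX2, and its interval ran from -0.21 to 0.56. All 14 intervals lay within a 2-fold change in both lines. The median of the mitosis genes in 2102Ep moved to 0.0061 without control replicate 3. BIRC5 (survivin), the single member with a second probe set, differed by -0.03 in 2102Ep and 0.09 in NTera-2 on the probe set used here and by -0.17 and -0.38 on the other. Since RNA came from bulk cultures, fewer cells in a phase and less RNA per cell cannot be told apart in any of these values.

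Whether the lines responded differently was tested as a difference of the changes, 2102Ep minus NTera-2. Of 49 genes, 0 had a higher and 1 a lower response in 2102Ep, where 2.53% and 2.67% of all genes did, and 0 passed 2-fold, against 1.66%. CDKN1B was this gene, at -0.58 ± 0.16 (adjusted p = 0.038). Its call was lost in 11 of 20 alternative settings (the replicate block and leaving out any array except 2102Ep control replicate 3 or NTera-2 siSOX2 replicate 2), at adjusted p up to 0.0972, while its value stayed between -0.65 and -0.48. CCND1 followed at 0.39 ± 0.14 (adjusted p = 0.169) and CDK2 at 0.45 ± 0.18 (adjusted p = 0.219). Neither passed, with 95% intervals from 0.08 to 0.69 and from 0.07 to 0.84. CCNE2 (-0.49 ± 0.29, adjusted p = 0.51), CDT1 (-0.25 ± 0.15, adjusted p = 0.524) and MCM2 (-0.24, adjusted p = 0.601) did not pass either. CCND2 (-0.09 ± 0.15), CCND3 (0.12 ± 0.17), CDKN1C (-0.06 ± 0.16) and CDKN2D (0.17 ± 0.17) had adjusted p-values of 0.79 to 0.946. This test uses the arrays of both knock-down comparisons, so it is no separate support for them.

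More of these genes passed between the lines than after siSOX2, and the same held for all genes. Between the control lines 7809 of 18404 passed, against 2330 after siSOX2 in 2102Ep and 909 in NTera-2. In the control arrays, which also enter the comparisons above, 26 of 49 genes were higher in NTera-2 than in 2102Ep and 5 were lower, where 21% of all genes were higher and 21.5% lower. The median difference was 0.32, beside -0.06 for all genes. The listed genes were mostly bright, and brighter genes were more often higher in NTera-2. With genes below the median signal left out, 2854 of 9202 genes were higher and 2252 lower, with a median of 0.03. CENPF alone passed 2-fold, a size reached by 7.76% of all genes. It lay at the cut, and over the alternative settings its difference ran from 0.74 to 1.17. The arrays of the lines did not overlap for 32 of the 49 genes, against 50.5% of all genes. Without 2102Ep control replicate 3, 19 of the 26 kept their call, and 18 of the 26 kept it in every alternative setting. Of the 5 lower genes, 2 (CCND3 and CDC25C) kept their call in every alternative setting. AURKB lost its call in 4 of 20 settings, GMNN in 2 and PCNA in 1.

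Of the 14 mitosis genes, 11 were higher in NTera-2 and 1 was lower, with a median of 0.43. CENPF, a kinetochore protein of late cycle cells, read 11.03, 10.17 and 10.90 in 2102Ep and 11.66, 11.70 and 11.75 in NTera-2, a difference of 1.00 ± 0.17 (adjusted p = 1.45e-04). BUB1 (0.72), BUB1B (0.72), TTK (0.67), the spindle motor KIF11 (0.65) and MKI67 (0.63) followed. AURKB, the kinase of the chromosomal passenger complex, was lower, at 11.24, 11.40 and 11.18 in 2102Ep and 10.96, 11.06 and 10.93 in NTera-2 (-0.29, adjusted p = 0.0229). BIRC5, of the same complex, differed by 0.13 (adjusted p = 0.321) and the kinesin KIF20A by 0.19 (adjusted p = 0.282). The other, dimmer BIRC5 probe set had the opposite sign, at -0.23, and was not tested.

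Replication genes were split, with 7 of 18 higher, 2 lower and a median of 0.16. RRM1 read 10.42, 10.33 and 9.98 in 2102Ep and 11.06, 11.23 and 11.20 in NTera-2 (0.92 ± 0.12, adjusted p = 7.28e-06). MCM6 read 9.72, 9.56 and 9.64 against 10.41, 10.43 and 10.42, a difference of 0.78 (adjusted p = 8.56e-06). MCM7 read 11.63, 11.16 and 11.52 against 12.28, 12.14 and 12.25, a difference of 0.79 (adjusted p = 3.67e-05). MCM4 (0.58), MCM10 (0.54), MCM2 (0.51) and TYMS (0.47) were also higher. MCM3 (0.12) and MCM5 (-0.16), helicase subunits like MCM2, MCM4, MCM6 and MCM7, did not pass. PCNA (-0.40, adjusted p = 0.014) and GMNN (-0.42, adjusted p = 0.0218) were lower in NTera-2.

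Of the 17 cyclins, CDKs and regulators, 8 were higher in NTera-2 and 2 were lower, with a median of 0.29. CCND1 had the smallest adjusted p of all members, with 10.79, 10.58 and 10.76 in 2102Ep against 11.54, 11.53 and 11.57 in NTera-2 (0.84 ± 0.10, adjusted p = 3.67e-06). CCND3 went the other way, from 10.00, 9.94 and 9.72 to 9.01, 9.39 and 8.96 (-0.77 ± 0.12, adjusted p = 5.74e-05). CCND2 differed by 0.20 ± 0.10 (adjusted p = 0.124), although its arrays were apart. Compared between lines, CCND1 was thus higher in NTera-2 and CCND3 in 2102Ep. CCNB2 (cyclin B2) read 10.87, 11.28 and 10.78 in 2102Ep and 11.60, 11.76 and 11.81 in NTera-2, a difference of 0.75 (adjusted p = 8.97e-05). CDK1 (0.91), CDK2 (0.44), CDK4 (0.44) and CDK6 (0.39) were all higher, and CDC25C was lower (-0.51, adjusted p = 0.00178). The inhibitors CDKN1B (0.12 ± 0.11, adjusted p = 0.421), CDKN1C (0.02 ± 0.11, adjusted p = 0.908) and CDKN2D (-0.22 ± 0.12, adjusted p = 0.156) did not pass.

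**Figure D3:**
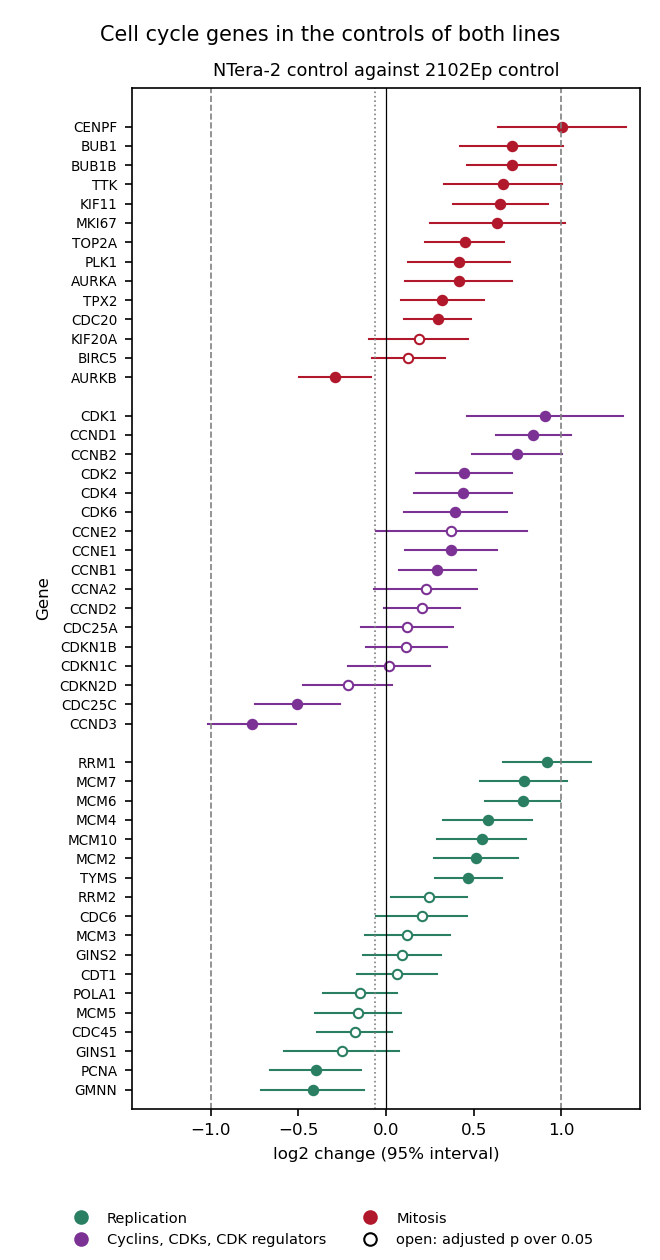
Log2 difference of NTera-2 control over 2102Ep control (horizontal axis) for each cell cycle gene, as limma estimates with 95% intervals and filled points for an adjusted p of 0.05 or less. Dashed lines mark 2-fold and the dotted line the median of all genes at -0.06. Most mitosis genes lie to the right, with CENPF at 1.00, and CCND3, CDC25C, AURKB, PCNA and GMNN lie to the left.

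The same difference was read on the siSOX2 arrays, which enter the control comparison only through the pooled spread of the fit, as values with no test. All 3 NTera-2 siSOX2 arrays lay above all 3 2102Ep siSOX2 arrays for 30 of 49 genes and below them for 7, against 28.4% and 24.8% of all genes. Of the 26 genes higher in NTera-2 controls, 23 were above on these arrays too, a share close to that of all genes higher in the controls (3378 of 3857). All 5 lower genes were below, as were 2863 of the 3952 genes lower in the controls among all genes. The median difference on the siSOX2 arrays was 0.30 for the listed genes and -0.02 for all genes.

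A mean deviation was formed for each array as the average, over the genes of a role, of the signal minus the mean of that gene on all 12 arrays. For mitosis genes it was -0.12, -0.25 and -0.41 in 2102Ep controls and -0.16, -0.14 and -0.26 after siSOX2. In NTera-2 it was 0.09, 0.29 and 0.18 on the controls and 0.27, 0.14 and 0.34 after siSOX2. Every NTera-2 array thus lay above every 2102Ep array, and within each line the control and siSOX2 arrays overlapped. The replication genes and the cyclins and CDKs gave the same order of lines. 2102Ep control replicate 3 was the lowest array for all 3 roles, and its part in the results was not tested beyond leaving it out.

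**Figure D4:**
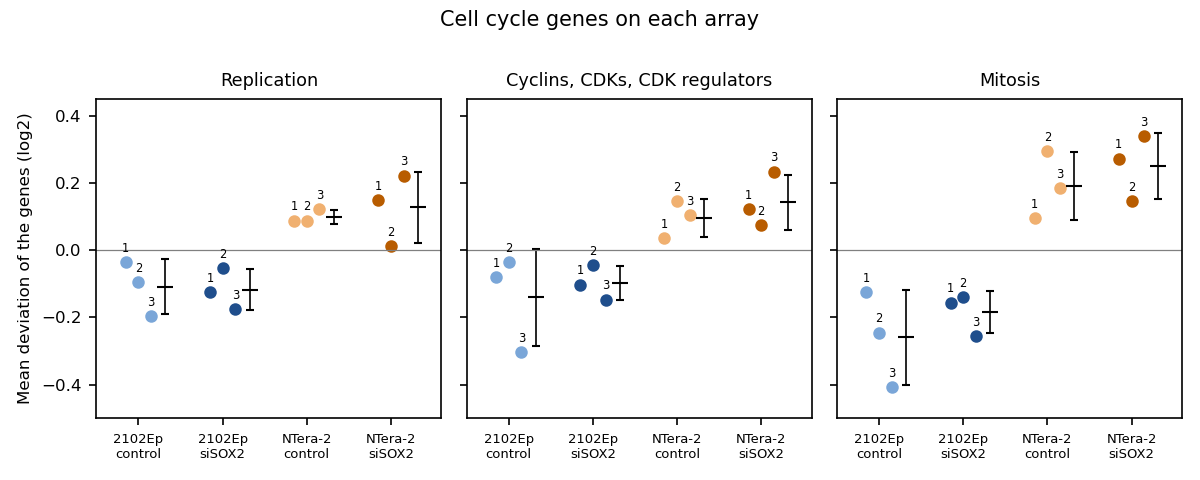
Mean deviation of the genes of each role on each array (vertical axis, log2), with replicate numbers beside the points and the group mean and SD in black. NTera-2 arrays lie above 0 and 2102Ep arrays below 0 in all 3 roles, siSOX2 arrays overlap their controls, and 2102Ep control replicate 3 is lowest, at -0.41 for mitosis genes.

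Further genes of the same processes were read as 3 wider lists. Their counts in 2102Ep are to be read against the 6.76% of all genes that rose and the 5.9% that fell. In NTera-2, 2.96% of all genes rose and 1.98% fell, and 2716 of 18404 had an unadjusted p below 0.05. Of 37 other replication genes in 2102Ep, 2 rose and 1 fell, with a median of -0.02. WDHD1 (AND-1), which couples the helicase to DNA polymerase alpha, read 10.50, 10.36 and 10.34 on the 2102Ep controls and 9.52, 9.42 and 9.25 after siSOX2. Its fall of 1.00 ± 0.11 (adjusted p = 5.94e-06) was the only change past 2-fold in the 3 lists in either knock-down. That rank depends on the cut: over the alternative settings WDHD1 ran from -1.06 to -0.93 and CCNA1, described below, from -1.06 to -0.83. In NTera-2 WDHD1 read 9.76, 10.00 and 9.94 against 9.71, 9.56 and 9.42, all lower (-0.34 ± 0.11, adjusted p = 0.107). UHRF1, a maintenance methylation factor (0.48), and the helicase MCM8 (0.37) rose in 2102Ep, and are named after their values were seen. UHRF1 had another, dimmer probe set that was not used, and its call was lost when the probe sets were averaged. In NTera-2, 0 of the 37 passed by limma, with 3 at an unadjusted p below 0.05.

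Of 36 other cyclin, CDK and RB-E2F genes, 3 rose and 3 fell in 2102Ep, shares near those of all genes. CCNA1, the germ cell A cyclin, read 9.09, 9.32 and 8.85 on the controls and 8.15, 8.28 and 8.0 after siSOX2 (-0.94 ± 0.15, adjusted p = 1.94e-04). The phosphatase CDC25B rose by 0.59 ± 0.11 (adjusted p = 0.00122), and MYBL2, a partner of the MuvB complex, fell by 0.45 ± 0.11 (adjusted p = 0.00938). CCNG2 (cyclin G2), an atypical cyclin of arrested cells, rose in both lines. It went from 8.46, 8.68 and 8.55 to 8.91, 8.95 and 9.17 in 2102Ep (0.44 ± 0.11, adjusted p = 0.00796) and from 8.21, 8.39 and 8.30 to 9.01, 8.89 and 8.94 in NTera-2 (0.65 ± 0.11, adjusted p = 9.13e-04). E2F8 (0.43) rose and CDK7 (-0.39) fell in 2102Ep, both named after their values were seen. In NTera-2, CCNG2 was the only 1 of the 36 that rose and MYC the only 1 that fell. MYC read 9.60, 9.62 and 9.57 on those controls and 8.88, 9.02 and 9.06 after siSOX2 (-0.61 ± 0.11, adjusted p = 0.00224), against 9.54, 9.38 and 9.40 and then 9.77, 9.72 and 9.41 in 2102Ep.

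Of 37 other mitosis genes, 2 rose and 1 fell in 2102Ep: the centromere protein CENPI (0.52, adjusted p = 0.0311), the separase ESPL1 (0.43, adjusted p = 0.0408) and the kinesin KIF15 (-0.46, adjusted p = 0.0274). None passed in NTera-2 by limma, and 0 had an unadjusted p below 0.05. Between the control lines, 28 of these 37 were higher in NTera-2 and 1 was lower, with a median of 0.69, where 21% of all genes were higher and 21.5% lower. With genes below the median signal left out, 2854 of 9202 genes were higher and 2252 lower. KIF23 (1.08), PRC1 (0.97), ECT2 (0.92), all of the central spindle, and the condensin NCAPH (0.92) had the smallest adjusted p-values. Of the other replication genes 14 were higher and 4 lower, and of the other cyclin, CDK and RB-E2F genes 11 of 36 were higher and 9 lower, nearer to the shares of all genes. RB1, the retinoblastoma protein, read 7.73, 7.33 and 6.77 in 2102Ep and 9.05, 9.42 and 9.32 in NTera-2, a difference of 1.99 (adjusted p = 1.77e-07). WEE1, which inhibits CDK1, was higher in NTera-2 by 1.69, and CCNA1 lower by 1.66. The CHR letters were held by 25 of 34 promoters of the other mitosis genes (73.5%) and the E2F letters by 10 of 33 promoters of the other replication genes (30.3%).

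Cell type markers were read beside these values. Of 14 listed embryonal carcinoma and pluripotency markers, 12 were read, since POU5F1 and NANOG had only probe sets shared with other genes. The 12 averaged 11.15 to 11.38 on the 2102Ep control arrays and 10.80 to 11.08 on the NTera-2 control arrays. Single markers differed between the control lines by -4.14 to 1.06. In NTera-2 controls 3 of the 12 were higher and 3 lower, where 21% of all genes were higher and 21.5% lower. After siSOX2, 8 of the 12 fell in 2102Ep and 5 of the 12 in NTera-2, where 5.9% and 1.98% of all genes fell. Past 2-fold in either direction were 1.98% of all genes in 2102Ep and 0.657% in NTera-2. All 8 early mesoderm markers rose past 2-fold in 2102Ep (median 3.46) and 5 of 8 in NTera-2 (median 1.18). Their mean signal ran from 7.92 to 8.01 in 2102Ep controls and from 11.10 to 11.19 after siSOX2. The small changes of the cell cycle genes were thus read in cultures where these listed markers had risen. Since the list was chosen with earlier results of these data known, its count describes these markers and is no test of mesoderm genes in general. The part of these markers in the cell cycle values was not tested. The 7 leukocyte markers averaged 5.98 to 6.29 over all arrays, below the median signal of all genes, and none passed in either line by limma. Of these 7, 1 in 2102Ep and 0 in NTera-2 had an unadjusted p below 0.05, against 4211 and 2716 of all 18404 genes. Of 8 fibroblast markers, which averaged 7.12 to 7.54, 2 rose and 1 fell in 2102Ep and 3 rose and 1 fell in NTera-2. Among all genes, 6.76% rose and 5.9% fell in 2102Ep, and 2.96% rose and 1.98% fell in NTera-2.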

How the data were processed

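Total RNA of 12 cultures was hybridised to Affymetrix whole-transcript gene arrays. The authors deposited robust multi-array average (RMA) signals on a log2 scale, with background correction, quantile normalization and summary to probe sets. The log base was read from the values, the sources used here give no genome build, and the submitters' processing notes name limma. RMA values compress differences of dim genes, and a gene sharing sequence with another can be blurred. Of 32321 probe sets, 19158 were annotated to 1 gene, 1388 to several and 11775 to none. Those with 1 gene gave 18404 genes (18376 matched to RefSeq symbols), each read from its probe set of highest mean. Array medians ran from 7.43 to 7.58, and arrays of 1 group correlated at 0.984 to 0.996.

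limma 3.58.1 (R 4.3.3) was fitted over 4 group means with eBayes, after a check on simulated data. The knock-down was compared with control separately in 2102Ep and NTera-2, then these responses with each other, and last the control lines, with arrays shared among comparisons. Values after ± are SEs. Alternatives were a replicate block, only the groups compared, dim genes left out, median centring, renewed quantile normalization, an eBayes trend, averaged probe sets, probe sets of several genes, and each of 12 arrays left out.

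All 50 listed genes could be named. Full values are given for those with the smallest adjusted p in each comparison, the D cyclins and the CDK inhibitors, and in the wider lists for 2-fold genes or up to 4. Members, lists and motifs were chosen with earlier results of these data known. Arrays give no read depth. Their number limits precision.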

Additional observations from a re-analysis of the deposited data

Results flagged for a closer look

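For 4 genes the knock-down response differed between the lines by the test of the difference itself, 2102Ep minus NTera-2. They come from the 49 listed genes and the wider lists of 37, 36 and 37 genes. Of all genes, 2.53% had a higher and 2.67% a lower response in 2102Ep by this test, so calls are not more frequent in these lists. CDKN1B differed by -0.58, being lower after siSOX2 on every 2102Ep array and higher on every NTera-2 array. Of the wider lists, WDHD1 differed by -0.66 (adjusted p = 0.018), with a fall in 2102Ep, and CCNA1 by -0.93 (adjusted p = 0.0108), where the NTera-2 signal was already near 7.4. MYC differed by 0.81 (adjusted p = 0.00401), with a fall in NTera-2. The CDKN1B call was lost in 11 and the WDHD1 call in 3 of 20 alternative settings, whereas CCNA1 and MYC kept theirs in every setting run. SOX2 mRNA fell further in 2102Ep, and the lines were transfected with different reagents and siRNA doses, so that line, reagent and dose cannot be told apart here. Groups of 3 arrays are too small for a test of single outlying arrays.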

How the results depend on the processing

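Over 20 alternative settings (8 of processing, 12 leaving out 1 array), no named gene's call changed direction. CCND1 and CDK2 kept their rise in 2102Ep in each. Of the named genes of the wider lists, several lost their 2102Ep call in some settings. E2F8 lost it in 10, ESPL1 in 9, MCM8 in 8, CDK7 in 6 and UHRF1 in 5. CENPI lost it in 4, KIF15 in 3, MYBL2 in 2 and CCNG2 in 1. WDHD1, CCNA1 and CDC25B kept their 2102Ep call in every setting run. With dim genes left out, CCNE2 was not tested and 0 members fell in 2102Ep. Renewed quantile normalization gave 8 lower members and 0 past 2-fold between the control lines, and a replication median of 0.085.

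Leaving out 1 array at a time gave 0 to 1 members falling in 2102Ep, with a mitosis median of 0.0061 to 0.16. The replication median in NTera-2 ran from -0.0057 to 0.12. For the difference of responses, 0 to 1 members were lower, and medians ran from -0.138 to 0.0187 (replication), -0.0959 to 0.0538 (cyclins and CDKs) and -0.0437 to 0.146 (mitosis). Between the control lines, 2 to 6 members were lower, 19 to 26 higher and 0 to 3 past 2-fold (2 lower without 2102Ep control replicate 2, 3 past 2-fold without 2102Ep control replicate 1, 0 past 2-fold without NTera-2 control replicate 3), with cyclin and CDK medians of 0.19 to 0.35. The causes were not tested.

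Replicate numbers did not pair the arrays: same-numbered arrays deviated with correlations of -0.38 to 0.27 over 18 pairs, and 2 of 12 arrays correlated best with their own number. With the number as a replicate block, 2 members rose in 2102Ep and 0 differed between the responses.

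The 4 groups of 3 arrays and 1 siRNA limit what can be seen: an exact permutation test of 3 against 3 cannot go below p = 0.1, so calls rest on the pooled spread of limma. The dimmest member, CCNE2, also spread widely (SD 0.51 among 2102Ep controls).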
